A study of Mus musculus with 16 samples.

Results

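The genes described here encode the subunits of the mitochondrial respiratory chain and ATP synthase that are carried in the nucleus, measured by 3′ mRNA sequencing in mouse cortical neurons. Members were the gene symbols of the raw count table that start with Nduf followed by a, b, c, s or v and a digit (complex I), the symbols Sdha to Sdhd (complex II), and those that start with Uqcr (complex III), Cox4 to Cox8 (complex IV) or Atp5 (complex V, the ATP synthase). A count of at least 10 in at least 4 of the 16 libraries was also required. Of 86 matching symbols, 2 pseudogene names and Cox7b2, which reached 10 counts in 1 library with a highest count of 24, were left out. The 83 members, of 16934 genes in the table, were 40 genes of complex I, 4 of complex II, 8 of complex III, 14 of complex IV and 17 of complex V. The members nearest the count rule were Ndufa4l2, with 10 counts in 4 libraries and a highest count of 76, and Ndufa11b, with 7 libraries and a highest count of 81. All 83 passed the filter of the test on low counts and were tested. Subunits encoded in mitochondrial DNA were not analysed here, so each complex is seen through its nuclear part.

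Electrons from NADH enter the chain at complex I and those from succinate at complex II, pass through ubiquinone to complex III and through cytochrome c to complex IV, which reduces oxygen. Complexes I, III and IV pump protons out of the matrix, and complex V lets them back through a rotating ring to make ATP. Each of complexes I, III, IV and V joins catalytic or core subunits with many small accessory subunits. Neurons draw most of their ATP for firing and synaptic work from this pathway.

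All 16 libraries came from primary cortical neurons of C57BL/6 mouse embryos at embryonic day 15 to 16, grown for 14 days. The 4 groups of 4 libraries were untreated neurons alone, neurons alone that had taken up α-synuclein fibrils labelled with Atto488 (0.1 µM, 16 h), untreated neurons kept with microglia for 6 h, and loaded neurons washed and then kept with microglia for 6 h. α-Synuclein is the protein that aggregates in Parkinson's disease, and microglia are the resident phagocytes of the brain. Whether microglia were removed before RNA isolation, and whether each library is its own culture or animal, is not given in the labels. The p-values therefore rest on library-to-library spread, part of which may be technical. The design asks how fibrils and microglia, alone and together, alter neuronal transcripts.

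Libraries held 6511516 to 13986374 counts, of which 9.35% to 26.8% fell on the ribosomal RNA gene Rn45s, and the biological coefficient of variation over all tested genes was 1.17. Cell type markers differed between cultures with and without microglia. The summed level of 8 pan-neuronal markers, all of them present, was 3712 ± 2048 CPM, counts scaled to library size (SD, n = 8; range 1054 to 6147) in the libraries of neurons alone and 1394 ± 553 (range 881 to 2301) in those of co-cultures. The 5 markers of excitatory neurons ranged from 1269 to 8414 CPM alone and from 181 to 1938 in co-culture, and the 12 markers of the oligodendrocyte lineage from 1114 to 3084 and from 4194 to 9871, without overlap. The 12 microglial markers summed to 4.92 to 41.0 CPM alone and 11.4 to 1327 in co-culture, with replicate 1 of the untreated and of the loaded co-culture at 664 and 1327 CPM. P2ry12 and Tmem119, which define resident microglia, were at 0 in all 16 libraries. Astrocyte markers lay between 1501 and 4514 CPM alone and between 739 and 5044 in co-culture. The part these markers have in the results below was not tested. In bulk libraries, fewer cells of a type and less RNA per cell cannot be told apart.

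The subunit genes were abundant and read out steadily. Together they came to 1.95% to 4.76% of a library in CPM. These CPM take up the TMM scaling factors, so the percentages are not plain shares of counts. Of 1328 member values, 23 were counts of 0, and these fell on 5 genes: 11 on Ndufa4l2, 4 each on Cox7a1 and Sdhd, and 2 each on Ndufs5 and Cox6b2. The spread between libraries of a group, as the SD of log2 CPM, had a median of 0.46 over members against 1.54 over all 13139 genes tested. Between the quartiles of the members' own levels, where the medians lay closer, 40 members had a median SD of 0.44 and all 863 tested genes 0.49. Since 3′ counts do not scale with transcript length, CPM were set side by side between genes. Such levels may still vary with GC content and with similar transcripts elsewhere, as for Cox6a1, so the order is approximate. Cox8a, a small subunit of complex IV, was the most abundant member at a mean of 2010 CPM, followed by Atp5g3, a gene for the proton-carrying ring of complex V, at 1504, and the complex IV subunit Cox6a1 at 1098. Median levels of the members were 191 CPM in complex I, 191 in complex II, 340 in complex III, 369 in complex IV and 437 in complex V.

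In scaled CPM, respiratory chain transcripts were lower in the libraries with microglia. The TMM factors, of which a higher one lowers CPM, were 0.860 to 0.989 alone and 0.978 to 1.15 in co-culture. Scaling by library totals gave smaller differences, as set out in the last section. Summed over all 83 members, the level was 32826 ± 8869 CPM in neurons alone (SD over 8 libraries of 2 groups; range 22162 to 47610) and 22436 ± 2238 in co-culture (range 19519 to 25722). By group the means were 27373 ± 5418 CPM in untreated neurons alone, 38280 ± 8654 in loaded neurons alone, 22443 ± 2328 in untreated and 22429 ± 2503 in loaded co-cultures (SD, n = 4). Loaded neurons alone thus had the highest mean, and the means of both co-culture groups lay together. The loaded libraries alone were at 43322, 47610, 28980 and 33208 CPM, and replicates 3 and 4 lay within the untreated range of 22162 to 33984. Loaded replicates 1 and 2 also had the lowest pan-neuronal marker sums of the libraries alone, 1313 and 1054 CPM. The part of these markers in the sums was not tested. Every complex had the same order of the alone and co-culture means. Complex I summed to 8482 ± 1971 CPM alone and 6190 ± 561 in co-culture, complex II to 724 ± 192 and 570 ± 72.5, and complex III to 3964 ± 1579 and 2401 ± 354. Complex IV summed to 9045 ± 2556 and 5610 ± 719 CPM, and complex V to 10612 ± 2785 and 7665 ± 784. In complexes I, III, IV and V, every library of loaded neurons alone was above every co-culture library, while untreated neurons alone overlapped with co-cultures in all 5 complexes.

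**Figure D1:**
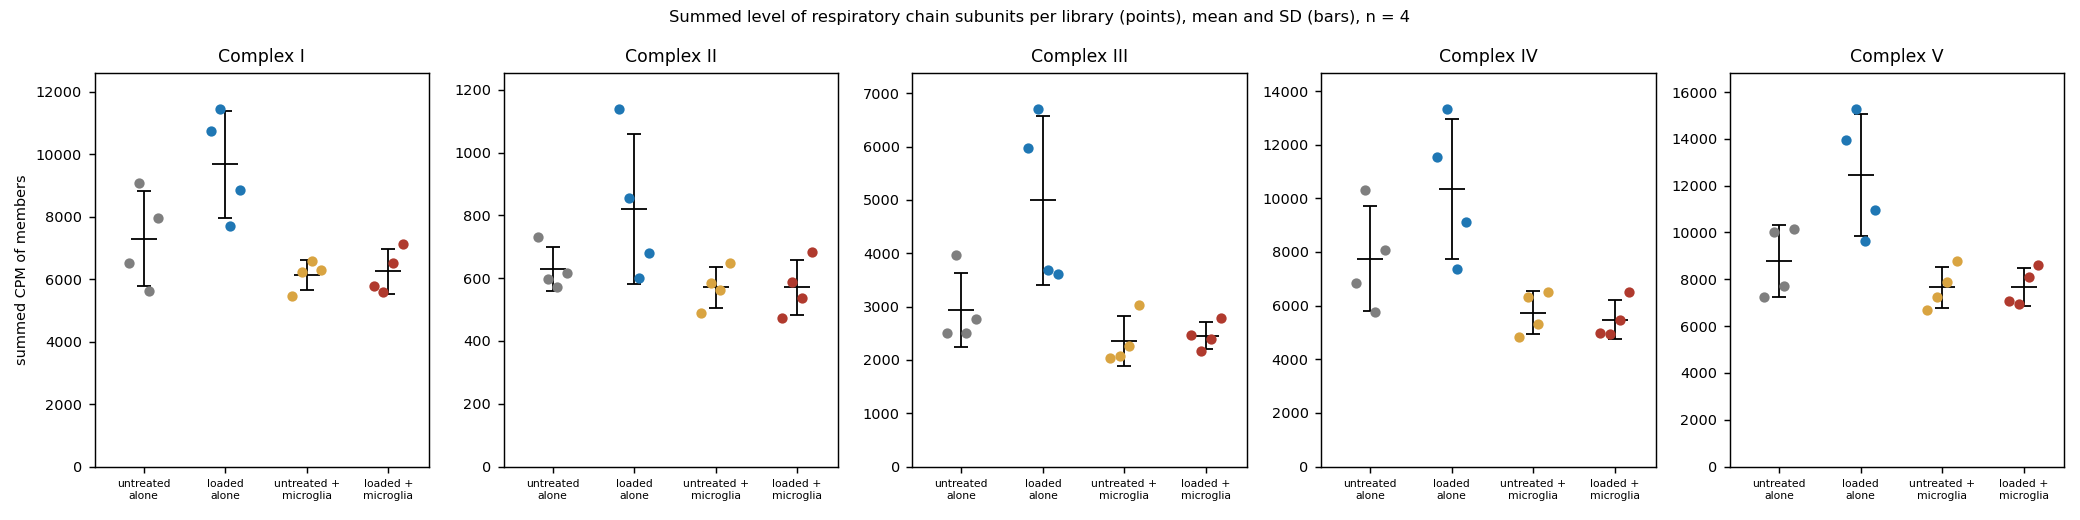
Summed CPM of the members of each complex (vertical axes, CPM, each starting at 0) in the 4 groups, with a point for each library and bars for the mean and SD (n = 4). In each complex the mean of loaded neurons alone is the highest, and both groups with microglia lie close together at the bottom.

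Gene by gene, the effect of microglia averaged over untreated and loaded neurons was negative for 82 of 83 members (51.4% of all tested genes), with a median log2 change of -0.49 against -0.03 over all genes tested; Sdhd, counted near 0 throughout, was the exception. Of the 83 members, 2 fell at an adjusted p under 0.05 in edgeR's quasi-likelihood test, Atp5g1 and Cox8a, where 2.19% of all tested genes were called and 0.974% as lower. A count of 2 is too small to set the members apart from other tested genes. At an unadjusted p under 0.05, 37 members (44.6%) were lower, against 8.79% of all tested genes. No member had all 8 co-culture libraries below all 8 libraries alone, which 0.221% of tested genes did. In untreated neurons the member median with microglia was -0.29, with 73 of 83 members negative (50.8% of all tested genes), 5 at an unadjusted p under 0.05 and lower (4.51% of all tested genes) and 4 with groups that did not overlap (3.81%). That median was -0.18 without untreated replicate 2 alone and -0.10 with scaling by library totals. In loaded neurons the median was -0.71, with 79 members negative (51.2% of all tested genes), 38 at an unadjusted p under 0.05, all lower (45.8%; 6.26% of all tested genes), and 22 with every co-culture library below every library alone (2.91%). No member passed the adjusted threshold in either single comparison, where 0.122% and 0.114% of tested genes were called.

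Atp5g1 encodes a c subunit of complex V, the part that forms the rotating ring in the inner membrane. It was at 559, 361, 392 and 413 CPM in untreated neurons alone and at 491, 525, 771 and 612 in loaded neurons alone. With microglia it was at 214, 239, 284 and 184 CPM in untreated and at 428, 177, 257 and 246 in loaded neurons. A single co-culture library, loaded replicate 1, overlapped the libraries without microglia, and it is also the one richest in microglial transcripts. The averaged log2 change was -1.01 ± 0.21 (SE; adjusted p = 0.0122), and without the pair of co-culture libraries rich in microglial transcripts it was -1.14 (adjusted p = 0.0139). Cox8a was at 1805, 2657, 1597 and 1519 CPM in untreated neurons alone and at 3504, 4520, 2277 and 2435 in loaded neurons alone. With microglia its levels were 1305, 1503, 1376 and 1810 CPM untreated and 1606, 1297, 1235 and 1720 loaded. Loaded neurons alone thus stood above all other groups but for the untreated library at 2657, and untreated neurons with and without microglia overlapped. The averaged log2 change of Cox8a was -0.73 ± 0.19 (adjusted p = 0.0476), a call at the edge of the threshold. It was lost, at adjusted p = 0.112, without the libraries rich in microglial transcripts, and without each of 14 of the 16 libraries in turn. The transcripts lie on chromosome 11 from 96068852 to 96075670 (Atp5g1) and on chromosome 19 from 7215153 to 7217616 (Cox8a), both on the minus strand of GRCm38.

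**Figure D2:**
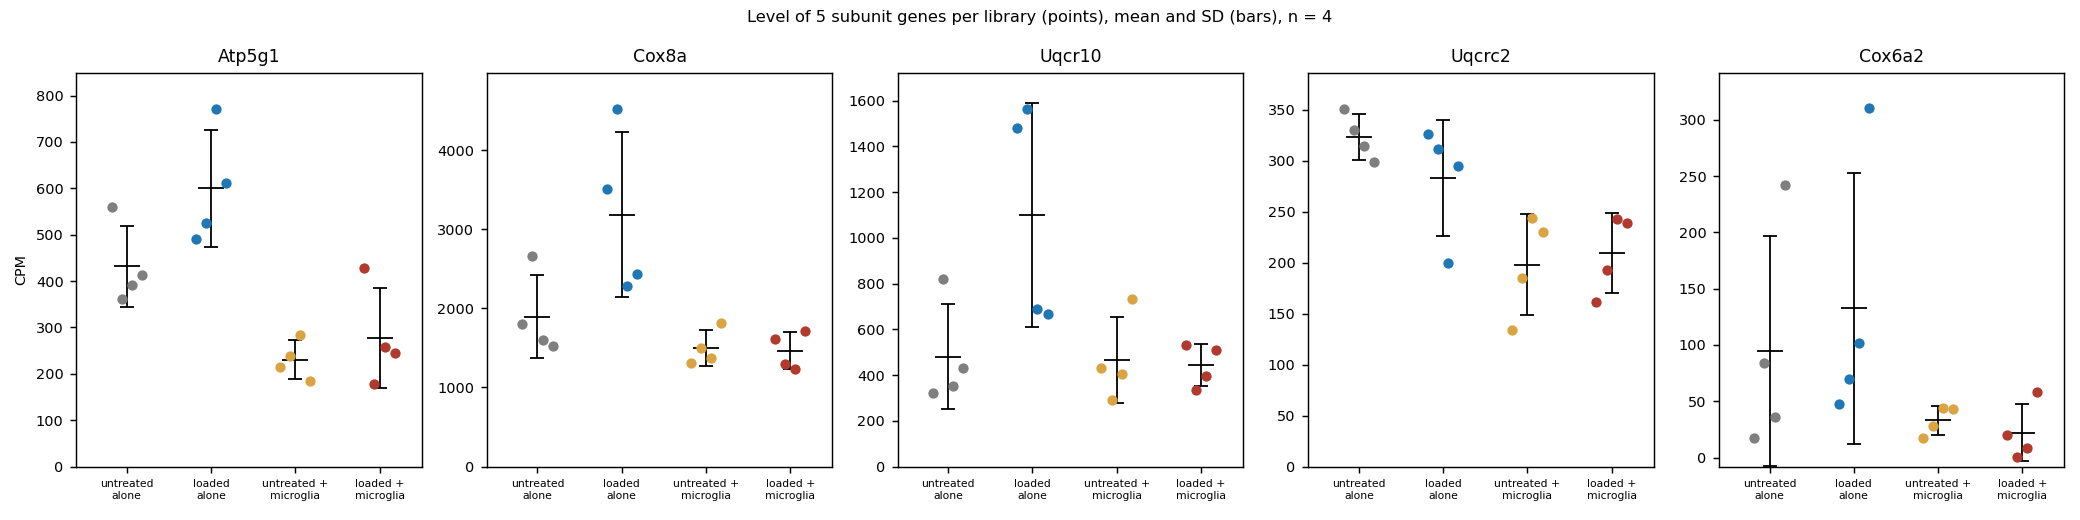
Levels of 5 subunit genes in CPM (vertical axes, linear) in the 4 groups, with a point for each library and bars for the mean and SD (n = 4). Atp5g1 is lower in both groups with microglia except for 1 loaded library at 428 CPM, Cox8a has its highest mean in loaded neurons alone, Uqcr10 is at 1481 and 1564 CPM in 2 of the 4 loaded libraries alone, and Cox6a2 reaches 242 and 310 CPM in single libraries.

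Regulators of nuclear mitochondrial genes have known recognition motifs, whose part in the values with microglia was not tested. Shown here as background are the promoters of both called genes, of Atp5g3 as the main ring gene and of Uqcr11 as a small complex III gene. Each runs from 250 bases before to 50 bases after the transcript start, 5′ to 3′ on the gene's own minus strand, from RefSeq on GRCm38.p6. The stretches are chr11:96075582-96075881 for Atp5g1, chr2:73911277-73911576 for Atp5g3, chr19:7217567-7217866 for Cox8a and chr10:80406772-80407071 for Uqcr11. Capitals mark exact matches, on either strand, to 6 motifs: GCGC followed by any base and TGCGC (NRF-1), CCGGAAG (ETS factors such as GABP), AAGATGGC (YY1), GGGGCGGG (Sp1), TGACGTCA (CREB) and TCAAGGTCA (ERRα).
Atp5g1: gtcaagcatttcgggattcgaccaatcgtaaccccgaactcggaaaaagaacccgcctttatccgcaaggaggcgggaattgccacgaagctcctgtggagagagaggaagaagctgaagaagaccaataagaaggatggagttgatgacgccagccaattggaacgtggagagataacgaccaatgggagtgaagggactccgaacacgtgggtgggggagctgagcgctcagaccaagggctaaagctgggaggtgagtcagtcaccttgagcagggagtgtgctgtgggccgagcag
Atp5g3: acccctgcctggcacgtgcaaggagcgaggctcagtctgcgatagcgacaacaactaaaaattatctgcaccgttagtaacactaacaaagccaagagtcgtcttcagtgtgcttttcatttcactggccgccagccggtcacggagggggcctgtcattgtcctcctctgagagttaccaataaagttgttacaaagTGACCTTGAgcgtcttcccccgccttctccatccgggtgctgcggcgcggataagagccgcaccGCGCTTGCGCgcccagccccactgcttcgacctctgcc
Cox8a: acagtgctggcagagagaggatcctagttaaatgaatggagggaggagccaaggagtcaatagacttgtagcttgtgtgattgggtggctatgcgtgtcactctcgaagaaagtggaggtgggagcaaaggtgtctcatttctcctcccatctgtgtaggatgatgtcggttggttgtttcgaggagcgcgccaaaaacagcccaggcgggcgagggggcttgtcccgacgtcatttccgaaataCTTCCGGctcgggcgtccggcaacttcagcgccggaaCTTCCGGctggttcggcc
Uqcr11: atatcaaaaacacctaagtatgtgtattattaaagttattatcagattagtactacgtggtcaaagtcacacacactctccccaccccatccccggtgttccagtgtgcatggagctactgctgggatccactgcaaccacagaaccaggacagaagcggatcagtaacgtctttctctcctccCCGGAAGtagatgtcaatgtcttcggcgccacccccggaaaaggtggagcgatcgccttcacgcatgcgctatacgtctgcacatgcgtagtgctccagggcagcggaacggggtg
Atp5g1 held none of the 6 motifs in this window, Cox8a held 2 ETS matches at -5 and 33 relative to the start, Uqcr11 an ETS match at -66, and Atp5g3 an NRF-1 match at 13 and an ERRα match at -52. A promoter entry was matched for 67 of the 83 members. NRF-1 matches were in 23.9% of the members' promoters, 10.5% of those of tested genes and 4.78% of all 27025 promoters. The YY1 motif was in 13.4% of the members, 4.72% of tested genes and 2.88% of all, with 7 of the 9 member matches in complex I. ETS motifs were in 23.9%, 17.9% and 9.12%, and CREB motifs in 5.97% (4 members), 3.41% and 1.88%. The ERRα motif was in 2.99% of the members (2, Atp5g3 and Sdhd), 0.277% of tested genes and 0.407% of all. The GC-rich Sp1 motif, at 26.9% of members, was in 32.1% of tested genes and 16.7% of all promoters. These are matches of letters and show no binding.

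In complex I, the 7 nuclear-encoded members of the catalytic core, which carry the flavin and iron-sulfur clusters, all had a negative averaged microglia change, with a median of -0.44. They ran from -0.12 for Ndufs7 to -0.89 ± 0.39 for Ndufs8, which binds iron-sulfur clusters near the quinone site, and none passed the adjusted threshold. All 33 accessory members were negative too, with a median of -0.44. Ndufc1, a small membrane-arm subunit, had the smallest p of complex I, at 151, 461, 234 and 347 CPM in untreated neurons alone, 444, 427, 287 and 368 in loaded neurons alone, 191, 292, 185 and 196 in untreated co-culture and 133, 201, 168 and 220 in loaded co-culture. Its groups with fibrils did not overlap, and its averaged change was -0.77 ± 0.23 (adjusted p = 0.0787). Ndufa4, placed in complex I by its symbol though its protein is now assigned to complex IV, had an averaged change of -0.33 ± 0.32. Its relative Ndufa4l2 was counted in 5 of 16 libraries and at most at 8.78 CPM.

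Complex II, the succinate dehydrogenase, has 4 subunits, all nuclear. Sdha, the flavoprotein, was at 134, 132, 175 and 199 CPM in untreated neurons alone and at 402, 188, 208 and 169 in loaded neurons alone. With microglia it was at 171, 120, 181 and 122 CPM untreated and at 103, 99.8, 116 and 141 loaded. The loaded co-culture was below every loaded library alone, by a log2 difference of -1.07 ± 0.32 (adjusted p = 0.201), while the untreated groups overlapped at -0.11. Sdhb, the iron-sulfur subunit, had an averaged microglia change of -0.28 ± 0.20, and the membrane anchor Sdhc one of -0.21 ± 0.33. Sdhc stood low, at 64.7 and 62.1 CPM, in loaded replicate 3 alone and loaded replicate 1 with microglia, against 174 to 408 CPM in the others. Sdhd, the other membrane anchor, never exceeded 7.73 CPM and was lower in the 4 loaded libraries alone (0 to 0.671 CPM) than in the untreated ones (1.67 to 7.73). No annotated transcript similar to the end of Sdhd was found. How the counting tool, its strand setting and the annotation, which are not given in the sources used here, bear on its counts was not tested.

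Complex III, the cytochrome bc1 complex, was lower with microglia in all 8 members, with an averaged median of -0.59. Of the 8, 7 were lower at an unadjusted p under 0.05, against 8.79% of all tested genes. The core members Uqcrc1 and Uqcrc2 and the Rieske iron-sulfur protein Uqcrfs1 had a median of -0.54, and the 5 small members Uqcr10, Uqcr11, Uqcrb, Uqcrh and Uqcrq one of -0.68. In loaded neurons, the medians were -0.45 for the core and -1.11 for the small members. Every small member had all loaded co-culture libraries below all loaded libraries alone, as 2.91% of all tested genes did. Cyc1, the cytochrome c1 gene of complex III, falls outside the rule by its symbol and is not in the core set. With microglia it changed by -1.31 ± 0.43 in loaded neurons (adjusted p = 0.252) and by 0.11 ± 0.42 in untreated neurons. Uqcr10 lay at 1481, 1564, 688 and 667 CPM in loaded neurons alone and at 532, 336, 397 and 509 in loaded co-culture, a log2 change of -1.31 ± 0.37 (adjusted p = 0.172). In untreated neurons, where it lay at 320, 818, 350 and 433 CPM alone and at 432, 291, 406 and 731 with microglia, the change was -0.05. Uqcrc2, named after its values were seen, was at 298 to 351 CPM in untreated neurons alone and at 134 to 244 with microglia, without overlap, while in loaded neurons 1 library alone, at 199 CPM, lay within the co-culture range of 161 to 243.

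Complex IV, cytochrome c oxidase, had the lowest median of the complexes with microglia, -0.68 on average, -0.48 in untreated and -0.80 in loaded neurons. On average over fibril state, complex IV had 11 of its 14 members lower at an unadjusted p under 0.05, against 8.79% of all tested genes. In loaded neurons complex III was close to it at -0.78, and when the 2 co-culture libraries with the most microglial transcripts were left out, complex III was at -0.94 and complex IV at -0.84. Cox4i1, the largest nuclear subunit, was at 622, 407, 190 and 324 CPM in untreated neurons alone and at 654, 479, 440 and 453 in loaded neurons alone. With microglia it was at 183, 323, 167 and 267 CPM untreated and at 383, 210, 250 and 294 loaded, an averaged change of -0.77 ± 0.24 (adjusted p = 0.0883). Its groups did not overlap in loaded neurons. Cox6a1 changed by -0.63 ± 0.21, Cox7a2 by -0.53 ± 0.22 and Cox7a2l by -0.98 ± 0.31 (adjusted p = 0.0942). Cox5a, named after its values were seen, missed the adjusted threshold narrowly at -0.77 ± 0.21 (adjusted p = 0.0527).

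Complex V, the ATP synthase, had an averaged microglia median of -0.43 with all 17 members negative. Its 5 catalytic-head genes had a median of -0.39, with Atp5a1, the α subunit, at -0.36 ± 0.19 and Atp5b, the catalytic β subunit, at -0.39 ± 0.22. The 4 peripheral stalk genes had a median of -0.42 and the 5 small membrane genes one of -0.49. The ring is encoded by Atp5g1, Atp5g2 and Atp5g3, whose mature proteins are identical, and these genes differed among themselves. Atp5g1 fell by 1.01, Atp5g3 had -0.43 ± 0.20 (adjusted p = 0.285) and Atp5g2 -0.05 ± 0.22. Atp5g3 supplied 71.0% ± 8.19 of the ring transcripts (SD, n = 16), and the share of Atp5g1 was 21.4% ± 6.68 alone and 15.4% ± 7.88 in co-culture (n = 8), ranges that overlap. Annotated transcripts elsewhere were at least 95% identical over at least 100 bases to the ends of Atp5g2, Atp5h, Atp5k, Atp5l, Atp5o, Cox5b, Cox6a1, Cox7c, Ndufa11b, Ndufb11, Ndufb4c and Ndufs3, so the values of these 12 members are uncertain. None was found for Atp5g1 or Cox8a. The search used 1 annotated transcript per gene, which for Atp5g1 was 4715 bases long. Whether the end of that transcript is the one counted was not tested.

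**Figure D3:**
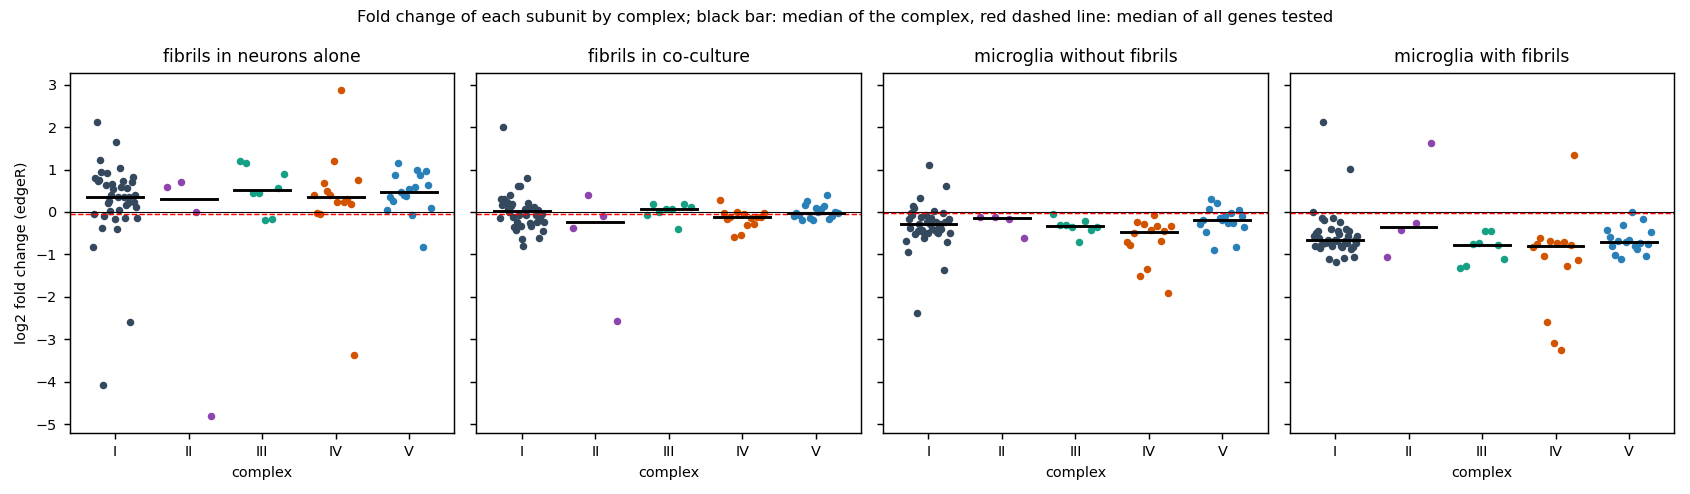
Log2 fold change of every member (points) by complex in 4 comparisons, with black bars for the median of each complex and a red dashed line for the median of all 13139 genes tested. Most members lie above the line for fibrils in neurons alone, around it for fibrils in co-culture, and below it for microglia, most of all in loaded neurons with a median of -0.71.

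Since a ratio of complexes within a library does not depend on scaling, complex IV was set against complex I. The ratio of summed CPM was 1.05, 1.14, 1.02 and 1.02 in untreated and 1.08, 1.17, 0.960 and 1.03 in loaded neurons alone. With microglia it was 0.883, 1.02, 0.809 and 1.03 in untreated and 0.862, 0.889, 0.842 and 0.914 in loaded neurons. Loaded co-cultures were below every library alone, while those of untreated co-cultures lay partly within the range alone. Cox8a makes up a large part of complex IV counts. Without it the ratio was 0.765 ± 0.0552 alone and 0.666 ± 0.0653 in co-culture (SD, n = 8), and the loaded co-cultures, at 0.584 to 0.673, then overlapped with the libraries alone, the lowest of which was at 0.664. As a share of all member counts, complex IV took 27.5% ± 1.57 alone and 24.97% ± 1.48 in co-culture, complex I 26.0% ± 1.17 and 27.6% ± 1.21, and complex V 32.4% ± 1.81 and 34.2% ± 0.910. The ratio of complex I to complex V was alike, at 0.805 ± 0.0652 and 0.809 ± 0.0415. No test was made on these sums, since the members were chosen with earlier results known.

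Fibrils in neurons alone went with a positive median of 0.39 over members, against -0.06 over all genes tested, and 64 of 83 members were higher (47.5% of all tested genes). No gene of the table passed the adjusted threshold in this comparison (0% called). At an unadjusted p under 0.05, 25 members were higher and 1 lower, where 4.03% of all tested genes were higher and 2.89% lower. Every loaded library was above every untreated one for 9 members (1.96% of tested genes) and below for 1, Sdhd (2.22%). The medians were 0.36 in complex I, 0.29 in complex II, 0.51 in complex III, 0.35 in complex IV and 0.47 in complex V. That of complex II was 0.07 without loaded replicate 1 alone and 0.14 in limma-voom, and that of complex IV 0.18 without untreated replicate 3 alone. Ndufa2, an accessory subunit of complex I, was at 220, 511, 331 and 264 CPM untreated and at 950, 910, 700 and 518 loaded, so the groups did not overlap, and its log2 change was 1.21 ± 0.33 (adjusted p = 0.532). Ndufa12, another accessory subunit, changed by 0.72 ± 0.27, and Ndufb7 by 1.04 ± 0.40, both without overlap. Atp5l, a small membrane subunit of complex V, was at 557, 1034, 558 and 797 CPM untreated and at 1412, 1932, 1193 and 869 loaded, a change of 0.88 ± 0.31, with overlap between 1 library of each group. Cell type markers also differed between these groups (SD, n = 4). The pan-neuronal markers were at 2754 ± 2278 CPM in loaded and 4671 ± 1467 in untreated neurons alone, and those of excitatory neurons at 3762 ± 2242 and 7033 ± 1429. Astrocyte markers were at 3511 ± 1073 and 2433 ± 1369 CPM, and those of the oligodendrocyte lineage at 2409 ± 679 and 1517 ± 466. The part of these markers in the fibril values was not tested.

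Within complex III the 5 small members parted from the core members Uqcrc2 and Uqcrfs1, but not from the core member Uqcrc1. Cyc1, left out of the core set by its symbol, went with the small ones. Its fibril change in neurons alone was 1.06 ± 0.43 (adjusted p = 0.695). The parting thus concerns Uqcrc2 and Uqcrfs1, and not the core of the complex as a whole. With fibrils in neurons alone, all 5 small members were positive with a median of 0.89, while the 3 core members had a median of -0.17. Of the small members, 4 were higher at an unadjusted p under 0.05, against 4.03% of all tested genes. The ratio of the summed small to the summed core members was 3.002, 4.63, 3.03 and 3.93 in untreated and 7.35, 7.29, 8.91 and 5.17 in loaded neurons alone, groups that did not overlap. With microglia it was 4.40, 4.05, 3.60 and 4.85 in untreated and 5.69, 4.16, 4.35 and 4.70 in loaded neurons, groups that did. The library with the highest ratio, 8.91, had a small sum of 3314 CPM and a core sum of 372 CPM, the lowest core sum of the 8 libraries alone. In complex V, the small membrane genes had a fibril median of 0.88 and the catalytic head one of 0.36, and in complex I the core had 0.24 and the accessory members 0.36. In complex V the members of both sets overlapped: the head held Atp5e, at 1.16 its highest, and the small membrane set held Atp5md, at -0.82 its lowest, both named after their values were seen.

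**Figure D4:**
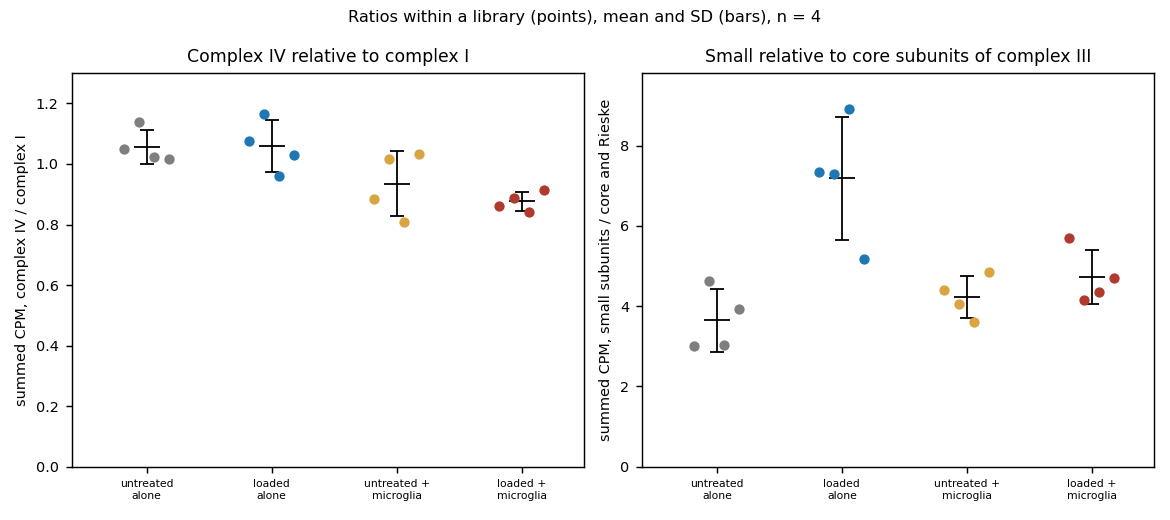
Ratio of summed CPM of complex IV to complex I (left) and of the 5 small to the 3 core members of complex III (right) in each library (points), with bars for the mean and SD (n = 4). The left ratio has its lowest mean in loaded co-cultures (libraries 0.842 to 0.914), while the lowest single library, at 0.809, is untreated co-culture replicate 3. The right ratio has its highest mean in loaded neurons alone (libraries 5.17 to 8.91), a range that holds loaded co-culture replicate 1 at 5.69.

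In co-culture, fibrils had no such pattern. The member median was -0.03 against -0.04 over all genes tested, 49 of 83 members were negative (52.5% of all tested genes), none was at an unadjusted p under 0.05 (3.68% of all tested genes), and 1 member, Ndufb2, named after its values were seen, had groups without overlap on the higher side (0.906%). The difference between the fibril effects in co-culture and alone, which equals the difference between the microglia effects in loaded and untreated neurons, had a median of -0.40 and was negative for 69 members (50.4% of all tested genes). For 8 members it reached an unadjusted p under 0.05, all negative (9.64%; 2.35% of all tested genes), and for none the adjusted threshold. The fibril effect alone and the microglia effect in loaded neurons share the loaded libraries alone, so their opposite signs are not independent of each other. Averaged over cultures with and without microglia, the fibril median was 0.17, with 59 members higher (46.6% of all tested genes), 13 of them at an unadjusted p under 0.05 (3.58%), and 0 called. For Uqcr10 the values side by side were 1.19 ± 0.37 and -1.31 ± 0.37, and for Atp5g1 0.47 ± 0.29 and -1.11 ± 0.30.

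Tissue isoforms of complex IV were mostly minor and uneven between libraries. Cox6a2, the heart and muscle form of Cox6a that some neurons also make, was at 17.1, 84.3, 35.9 and 242 CPM in untreated and at 47.9, 70.0, 102 and 310 in loaded neurons alone. With microglia it was at 17.3, 27.6, 44.0 and 43.5 CPM untreated and at 19.9, 0.716, 8.90 and 58.2 loaded, an averaged change of -2.06 ± 0.71 (adjusted p = 0.153). Its share of Cox6a transcripts ran from 0.0961% to 23.2%, with the 2 highest values, 22.6% and 23.2%, in replicate 4 of untreated and of loaded neurons alone. Cox7a1, the muscle form of Cox7a, was at 213 and 97.5 CPM in loaded replicates 1 and 2 alone and at most at 27.7 in the other libraries, with 4 at 0, so its log2 change with fibrils of 2.88 ± 2.02 had a wide error. Of the Cox4 and Cox8 sets, Cox4i1 and Cox8a were the members.

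Some members varied widely between libraries of one group. After removal of group means, a first component over 80 members held 40.3% of their variance. It was led by a few genes of wide spread, Ndufs5, Cox7c, Cox7a1, Atp5md and Ndufa1, named after their values were seen, of which Ndufs5 and Cox7a1 have counts of 0 in some libraries. Cox7c, a small subunit of complex IV, was at 7.61, 435, 62.6 and 440 CPM in untreated neurons alone and at 1.42, 25.4, 91.2 and 115 in loaded co-culture, the lowest and the highest of its 16 values. Ndufs5 ranged from 0 to 92.5 CPM and Atp5md, a small membrane subunit of complex V, from 13.4 to 1155. Cox5a by contrast kept between 167 and 580 CPM, and Atp5j2 had the lowest within-group SD, 0.24. Scores were lowest in loaded co-culture replicate 1 (-0.61), loaded replicate 3 alone (-0.36) and untreated replicate 3 alone (-0.25), and highest in loaded co-culture replicate 4 (0.40). The loading of a member went with a low GC content of the last 200 bases of its transcript (Spearman's rho across genes -0.47, n = 80), with short transcripts (-0.32), and little with level (-0.11). Genes are not independent replicates, and they share these libraries. Over all genes the library at -0.61 also had the steepest slope on GC, 0.25 log2 units per 10% GC.

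**Figure D5:**
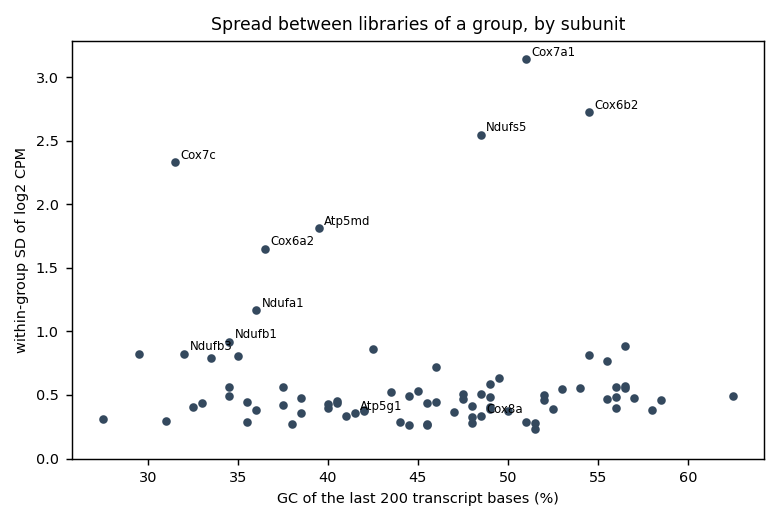
Within-group SD of log2 CPM (vertical axis) against the GC content of the last 200 transcript bases in percent (horizontal axis), with a point for each of 80 members. Most members lie below 1, and the widest spreads are those of the labelled Cox7a1, Cox6b2, Ndufs5 and Cox7c, all above 2.

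The fibril values also differed between members of low and high GC. In neurons alone, the 28 members with the lowest GC had a fibril median of 0.12, the 28 in the middle 0.54 and the 27 with the highest 0.59. A correction of the counts for GC gave a member median of -0.40 for the averaged microglia effect, where the uncorrected counts gave -0.49, and one of 0.25 for the averaged fibril effect, where they gave 0.17. That correction was chosen after seeing the data.

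Genes outside the complexes that build or regulate them were followed with the same fit, as lists chosen with earlier results of these data known, and none passed the adjusted threshold in any comparison. The 45 tested assembly factors, which insert cofactors and join subunits, had a median averaged microglia change of -0.38, with 34 lower, where 6754 of all 13139 tested genes were lower. Their fibril median in neurons alone was 0.08. The 5 carriers and other subunits outside the rule, such as cytochrome c, had -0.52 with microglia. The 11 regulators, among them Ppargc1a, Nrf1 and Tfam, had medians of 0.18 with microglia and -0.43 with fibrils alone, but varied widely. With microglia 4 were lower and 7 higher, from -1.41 ± 0.81 for Ppargc1a to 1.07 ± 0.63 for Nrf1. With fibrils alone 9 were lower and 2 higher, from -1.54 ± 0.71 for Tfb2m to 0.32 ± 1.13 for Ppargc1a. Genes at the ends of these ranges are named after their values were seen. The 78 mitochondrial ribosomal proteins had -0.08 with microglia and 0.29 with fibrils alone, and the 79 cytosolic ribosomal proteins 0.24 and 0.57.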

How the data were processed

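RNA was measured by the QuantSeq 3′ forward kit, which counts transcript ends, in 16 libraries of 4 groups, per the labels' protocols. STAR, Partek, DESeq2 and the build mm10 are named in the submitters' processing notes; versions, the counting tool, its strand setting and the annotation are not given in the sources used here. Unnormalized counts per symbol were deposited, beside a second table of normalized values, a score that the authors rounded to whole numbers, which served in 1 alternative.

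Counts were fitted in R 4.3.3 with edgeR 4.0.16 by robust quasi-likelihood with 4 group means; filterByExpr (minimum count 10, minimum total 15) kept 13139 of 16934 genes, scaling was by TMM, and the calling threshold was 0.05 for the p adjusted over all of them (Benjamini-Hochberg). Standard errors are the log2 change divided by the root of F. Levels in CPM, and in log2 CPM with a prior count of 2, took up that scaling. Complexes were described by sums, medians and counts, without a test. GC and similar copies came from GENCODE M21 transcripts, promoters from RefSeq. Alternatives used limma 3.58.1 and DESeq2 1.42.0; Python 3.11.15 with pandas 2.3.3 and matplotlib 3.10.9 made tables and plots. The fit was tested on simulated data.

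Members, gene lists and the averaged contrasts were chosen with earlier results of these data known. Members named were those called, the 2 most abundant and those with the smallest p in each complex, catalytic core genes, Sdh genes and isoform sets; others are marked as chosen after their values were seen. Groups came from the treatment labels. Replicates are numbered in accession order. The library codes run in blocks by replicate number, and what these blocks are is not given. Over all tested genes, deviations from group means correlated at a median of 0.043 between same-numbered libraries and -0.013 between others. Some values did go with the number. Both co-culture libraries rich in microglial transcripts are replicate 1, and both libraries with the highest Cox6a2 share are replicate 4.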

Additional observations from a re-analysis of the deposited data

Results flagged for a closer look

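Of 148 sets of 4 libraries examined for the named members, 9 (6.08%) held a library far from the other 3 by Dixon's criterion, and chance gives about 1 in 20. In loaded neurons with microglia, replicate 1 was low for the ring gene Atp5g3 at 674 CPM (1345 to 1395 in the others) and high for Atp5l at 1294 CPM (609 to 691), and replicate 3 was high for the iron-sulfur subunit Ndufs8 at 58.9 CPM (27.8 to 30.1). In loaded neurons alone, replicate 1 was high for Ndufb7 at 275 CPM (131 to 143) and for the flavoprotein Sdha at 402 CPM (169 to 208). In untreated co-culture, Atp5g2 was high in replicate 1 at 314 CPM (184 to 196), Ndufc1 in replicate 2 at 292 CPM (185 to 196) and Uqcr11 in replicate 4 at 543 CPM (272 to 303). In untreated neurons alone, Sdhb was high in replicate 1 at 209 CPM (170 to 176). These libraries were kept in every value above.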

How the results depend on the processing

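None of the 1172 recomputed medians of complexes and of all members moved by more than the spread between replicates, but that spread, an SD of 0.25 to 0.57 log2 units, is as large as many of the medians, so this is a weak check. Some medians went to 0 or across it: complex II with microglia on average went from -0.24 to 0.00 after GC correction, and complex V with microglia in untreated neurons from -0.20 to 0.00 with library totals. For the averaged microglia effect the member median ran from -0.51 (limma-voom) to -0.27 (scaling by library totals) and from -0.53 to -0.40 with 1 library left out. Scaling by library totals also moved the median of all genes from -0.03 to 0.18, so the members stayed below it. The count of members called with microglia on average, 2 in edgeR with TMM, was 17 in DESeq2's own test, 7 in limma-voom, 4 in limma on the authors' normalized values, and 1 after GC correction (added after seeing the data), with library totals, with library totals without Rn45s, and with the 2 co-culture libraries richest in microglial transcripts left out; with 1 library left out it was 1 to 3. DESeq2 called 4 members for fibrils in neurons alone, 13 for microglia in loaded neurons (1 in limma-voom) and 1 for the interaction, where edgeR called 0. The share of all tested genes called is not given for these alternatives. Their counts therefore show how calls vary with the method, and not how far the members stand out from other genes. Atp5g1 stayed called in all 26 alternatives (adjusted p 0.000101 to 0.0416). Cox8a lost its call with DESeq2's size factors (adjusted p = 0.0526), library totals (0.159), library totals without Rn45s (0.100) and GC correction (0.148), and with 14 of 16 libraries left out in turn (up to 0.131). The cause of these differences was not tested. With the replicate block, 2 members were called for the averaged microglia effect, Atp5g1 and, in place of Cox8a (adjusted p = 0.0504), Cox5a, and no count of calls in another comparison changed; same-numbered libraries had correlations of -0.111 to 0.217 (median 0.043), so the numbers are not taken as pairs. Sdhd and Ndufa4l2 have few counts, so their changes carry wide errors.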
